A study of Mus musculus with 435 samples.

Results

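Vesicle trafficking and secretion genes were followed in mouse liver over a feeding series of 2 inbred strains, A/J and C57, each fed a diet high or low in fat. The genes were chosen by name alone: every symbol of the array's gene table made of Rab, Arf, Sec, Vps, Snx, Stx or Vamp followed by a digit, with a probe measured on at least 150 arrays. The rule found 160 probes of 142 genes by name, and 134 probes of 121 genes met the array minimum, of 13409 genes at 17280 probe positions on the array. Just inside the minimum were Rab12 (164 arrays) and Snx29 (166), and just outside it Snx7 (149) and Snx10 (142). By family the members were 47 Rab, 5 Arf, 17 Sec, 30 Vps, 17 Snx, 11 Stx and 7 Vamp probes. A name is not a function, and some members do other work: Vps72 belongs to a chromatin remodelling complex, Sec1 is a fucosyltransferase gene, Sec14l1 and Sec14l2 encode lipid-binding proteins, and Rab10os is a transcript from the strand opposite Rab10.

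These proteins move membrane and cargo between compartments. Rab and Arf proteins are small GTPases that mark a compartment and recruit coats, motors and tethers to it. The Sec proteins named after yeast secretion mutants form the channel through which new proteins enter the endoplasmic reticulum and the COPII coat that carries them out of it. Vps proteins build the retromer, ESCRT, HOPS and GARP complexes of endosomes and lysosomes, sorting nexins (Snx) bind endosomal lipids, and syntaxins (Stx) and VAMPs are SNAREs that pull membranes together for fusion. Hepatocytes use this machinery to secrete albumin, lipoproteins and clotting factors into blood and to take up lipoprotein remnants.

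The series holds 435 arrays, 218 of A/J and 217 of C57, in 44 groups of strain, diet and week. On each array liver RNA in Cy5 was set against 1 common reference in Cy3, a pool of 10 C57 tissues (liver, kidney, both adipose tissues, skeletal muscle, lung, brain, hypothalamus, heart and testes), so every value is a ratio of liver over that pool and not an abundance that can be ranked between genes. Values are log2 ratios centred on each array's median over the tested probes, so 0 stands for that median and not for equal RNA in liver and pool. Week 8 was left out because 28 of its arrays had a correlation under 0.15 with the probe medians of the series. Another 4 arrays under that limit were left out too, and 2 pairs of A/J high-fat arrays with identical values were counted once. The comparisons use 350 arrays over weeks 1, 3, 4, 5, 6, 7, 9, 10 and 11, in 36 groups of 8 to 10 arrays, and the 9 weeks serve as replicates of a strain and diet. Mouse ages, which arrays share a mouse and the days of hybridisation are not given in the sources used here, so week and hybridisation batch cannot be told apart. C57 is written as the labels give it, without a substrain.

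Of the 134 member probes, 84 (of 78 genes) had a value on 70% or more of these arrays, with 3 or more per group, and were tested among 7643 such probes of the whole array. The other 50 are described by their ratios only. An array of the 9 weeks measured a median of 112 member probes (20 to 134), and a week 0 array a median of 55. Hepatocyte markers stood above that median: all 15 that could be tested, from Cyp2e1 (0.25) to Apoa1 (1.74), had a mean log2 ratio above 0 in each strain and diet. The 7 tested skeletal muscle markers were all below 0 on average over the 36 groups, from Acta1 (-2.75) to Actn3 (-0.12). In a whole liver, fewer cells of a type and less RNA per cell cannot be told apart.

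Like most tested probes of the array, most trafficking probes had a mean liver-over-pool log2 ratio below 0. Over the 36 groups 34 of the 134 probes averaged above 0 and 100 below it, with a median log2 ratio of -0.30. Of the 134 probes 50 were too sparse to be tested. No background over all similarly sparse probes of the array was taken. Among the tested probes 29 of 84 members (34.5%) were above 0, with a median of -0.11, against 40.4% of all tested probes, whose median was -0.10. Snx2 and one Rab43 probe were the members above 0 in each of the 36 groups, and 13 members were below 0 in each. The genes named next by complex, beyond the highest and lowest of each family, were picked by role after the values had been seen.

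**Figure D1:**
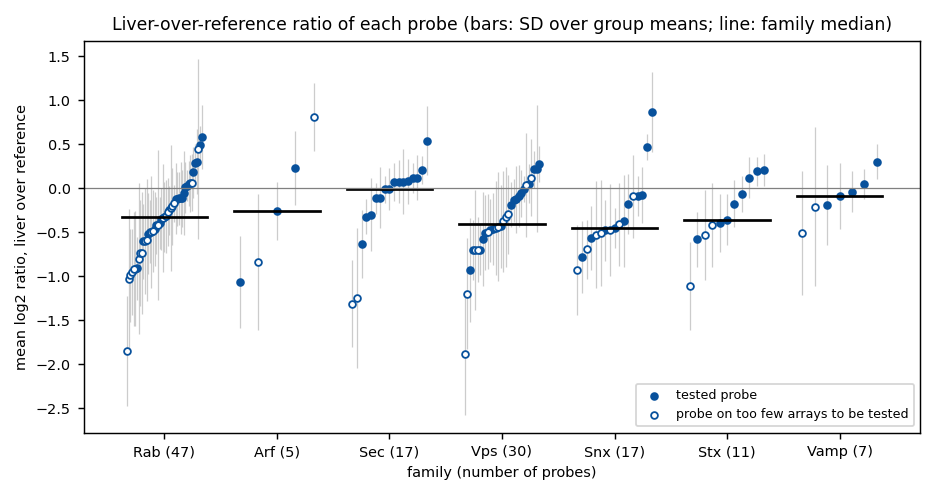
Mean log2 ratio of liver over the pooled reference for each of the 134 member probes (y axis), by family (x axis, number of probes in brackets). Points are means over up to 36 groups, grey bars are the SD over those group means, black lines are family medians, and open points are probes on too few arrays to be tested. The Sec family has its median near 0 (-0.01), and the other medians lie between -0.45 (Snx) and -0.08 (Vamp). Medians include the open points.

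The Sec family, which serves entry into and exit from the endoplasmic reticulum, lay closest to 0, with 8 of 17 probes above 0 and a median of -0.01. Its highest member was Sec14l2 at 0.54 ± 0.39 (SD over 36 group means), a lipid-binding protein also known as supernatant protein factor, and its lowest was the signal peptidase subunit Sec11c at -1.31 ± 0.49. The second signal peptidase subunit, Sec11a, was at 0.21 ± 0.16 and above 0 in 32 of 36 groups. Genes of the translocon, the channel for new proteins, were spread: Sec61b and Sec61a1 were both at 0.08, Sec61g was at -0.30, and Sec61a2 at -1.25. COPII coat genes lay near 0, namely Sec13 (0.12), Sec23b (0.08), Sec31a (-0.01) and Sec24d (-0.11), as did Sec16b (0.07), which organises the exit sites.

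Among the 47 probes with a Rab name, Rab10os included, 11 were above 0 and the median was -0.33. Of these 47 probes 22 were too sparse to be tested, against 2 of 17 in the Sec family. Family medians over all members are therefore not on equal terms. Over the 25 tested Rab probes the median by strain and diet ran from -0.18 (C57 low-fat) to -0.05 (A/J high-fat). The highest of the 47 was Rab22a, an endosomal Rab, at 0.59 ± 0.36 and above 0 in 32 of 36 groups. The lowest was Rab5a, the early endosome Rab, at -1.85 ± 0.62 and below 0 in all 36, while its relative Rab5c was at -0.11 ± 0.41. The late endosome gene Rab7 (-0.91 ± 0.36) was also below 0 in all 36 groups. Rab1a and Rab1b, which act between endoplasmic reticulum and Golgi, differed, at -0.91 ± 0.65 and 0.18 ± 0.29. Of the 5 Arf genes Arf5 was highest (0.81 ± 0.38, in the 30 groups that measured it) and Arf3 lowest (-1.06 ± 0.52, below 0 in all 36).

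The Vps family had 6 of 30 probes above 0 and a median of -0.40. Its ends were both retromer genes, Vps26b at 0.27 ± 0.21 on its higher probe and Vps35 at -1.88 ± 0.69 on its lower. The HOPS tether genes Vps11 (-0.70), Vps39 (-0.30) and Vps33a (-0.13) were below 0, and so were the ESCRT genes Vps28 (-0.09) and, on both of their probes, Vps25 (-0.46 and -0.45) and Vps36 (-0.43 and -0.06). Sorting nexins had the lowest family median, -0.45, with 2 of 17 probes above 0. Those were Snx21 on its higher probe (0.86 ± 0.46) and Snx2 (0.47 ± 0.15), and Snx24 was lowest (-0.93 ± 0.51).

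Among the SNAREs 3 of 11 syntaxin probes were above 0, with Stx8 of late endosomes highest (0.21 ± 0.18) and Stx16 of the trans-Golgi lowest (-1.11 ± 0.50). In the Vamp family 2 of 7 probes were above 0. Vamp8, an endosomal and secretory granule SNARE, was highest (0.30 ± 0.20, above 0 in 35 of 36 groups) and Vamp4 lowest (-0.51 ± 0.70). Across strain and diet the median of the tested Sec probes ran from -0.01 (A/J low-fat) to 0.05 (C57 high-fat). That of the tested Vps probes ran from -0.30 (A/J high-fat) to -0.14 (C57 high-fat). For tested Snx probes it ran from -0.30 (A/J high-fat) to -0.22 (C57 high-fat). For tested syntaxin probes it ran from -0.13 (C57 high-fat) to -0.11 (A/J low-fat). The median of all 84 tested members was -0.12 in both A/J groups, -0.11 in C57 low-fat and -0.07 in C57 high-fat.

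Genes with more than 1 member probe showed how far 2 probes of a gene can part. There were 12 such genes with 25 probes, and in 4 of them the probes lay on opposite sides of 0. Vps26b was at 0.27 on probe 2971 and at -0.70 on probe 2358. Vps35 was below 0 on both probes, at -0.57 and -1.88, and Rab3il1 at -0.27 and -1.03. The Vps25 probes, at -0.46 and -0.45, were the closest pair apart from a pair of Vps35l probes, both at 0.22. Probe sequences were not used here, so which transcript of a gene each probe reads was not tested.

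The first question of the design was what the high-fat diet did in each strain. Over 9 weeks no tested trafficking gene was called for diet in limma with Benjamini-Hochberg adjustment over all probes. In C57 the count was 0 of 84 members, where 0.196% of all 7643 probes were called (0.157% higher and 0.0393% lower), and 7 members had an unadjusted p under 0.05 (8.33% of members, and 6.32% of all probes). In A/J it was 0 of 84, against 0.0262% of all probes called (0.0262% higher and 0% lower), with 3 at an unadjusted p under 0.05 (5.42% of all probes). The median difference over members was 0.03 in C57 and 0.01 in A/J, beside 0.00 and -0.01 over all tested probes.

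**Figure D2:**
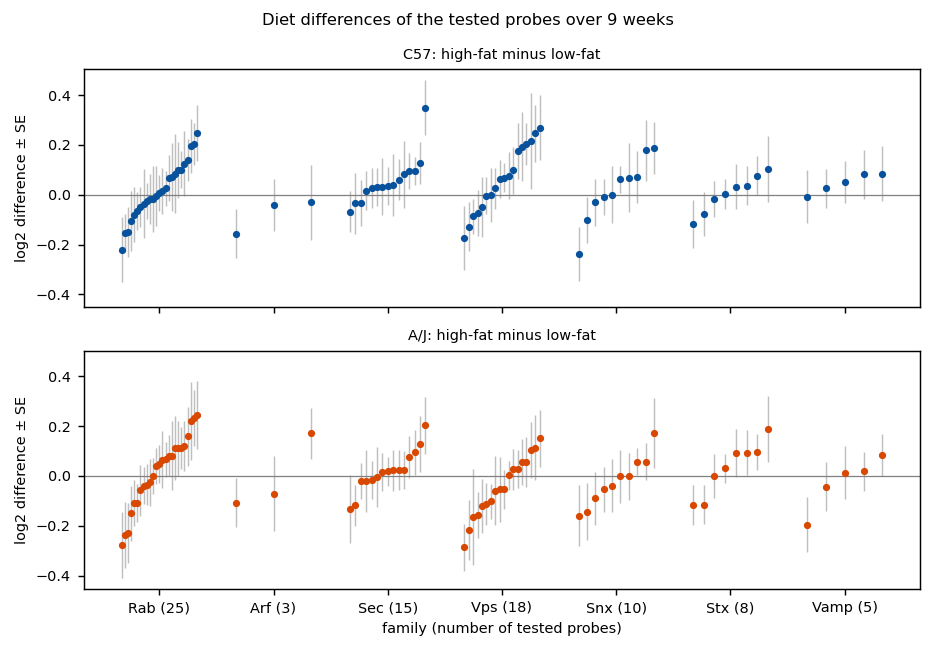
High-fat minus low-fat log2 difference ± SE from limma over 9 weeks (y axis) for each of the 84 tested member probes, by family (x axis), in C57 (upper panel) and A/J (lower panel). Points of a family are ordered by value, and those furthest from 0 are Sec14l2 in C57 (0.35) and Vps11 in A/J (-0.29).

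In C57 the member with the greatest diet difference was Sec14l2. Its weekly group means ran from -0.13 through a median of 0.34 to 0.75 on the low-fat diet and from 0.02 through 0.62 to 1.54 on the high-fat diet. The ranges overlapped, yet the high-fat mean was the higher in 9 of 9 weeks, by 0.02 at week 9 to 1.00 at week 11. The fitted difference was 0.35 ± 0.11 (SE), or 1.27-fold, with an adjusted p of 0.339. Next came the ESCRT gene Vps25 at 0.27 ± 0.13 (probe 1691, positive in 7 weeks) and Rab28 at 0.25 ± 0.11 (7 weeks). At the low end were Snx3, a retromer partner, at -0.24 ± 0.11 (negative in 8 weeks), Rab24, linked to autophagy, at -0.22 ± 0.13 and Vps35 at -0.17 ± 0.13. The adjusted p of these 5 ran from 0.734 to 0.951. Without week 6 Vps25 was at 0.18, and without week 11 Rab28 was at 0.16.

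In A/J Vps11, a core subunit of the HOPS tether, lay furthest from 0. Its weekly means ran from -1.03 through -0.53 to 0.04 on the low-fat and from -1.50 through -0.64 to -0.23 on the high-fat diet. The high-fat mean was the lower in 8 of 9 weeks, with a fitted difference of -0.29 ± 0.09 and an adjusted p of 0.738. Rab24 (-0.28 ± 0.13) and Rab13 (-0.24 ± 0.13) followed, each negative in 6 weeks. The highest were Rab33b of the Golgi (0.24 ± 0.14), Rab28 (0.23 ± 0.11) and Rab1a (0.22 ± 0.16), with adjusted p from 0.898 to 0.995. Single weeks carried several of these estimates. Without week 11 Rab1a was at 0.0078, and without week 1 Rab28 was at 0.12. Without week 4 Rab24 was at -0.10 in A/J and at -0.13 in C57.

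Whether the diet acted differently in C57 and A/J was tested directly as the difference of the diet differences. No member passed (0 of 84), as no probe of 7643 did (0% called). At an unadjusted p under 0.05 there were 2 members, Vps11 (0.36 ± 0.13) and Vps9d1, against 2.67% of all probes. The other estimates furthest from 0 were Vps45, a regulator of syntaxins (0.38 ± 0.27), and Snx12 (0.34 ± 0.17), and at the low end Rab2a (-0.27 ± 0.17), Arf2 (-0.21 ± 0.15) and Stx5a (-0.21 ± 0.14). Leaving out 1 week moved Snx12 to 0.18 (week 6), Rab2a to -0.13 (week 1), Arf2 to -0.10 (week 6), Stx5a to -0.11 (week 4) and Vps45 to 0.64 (week 10).

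The diet was also compared within single weeks, on single arrays, in 20 comparisons that tested 27 to 127 members each. These p-values rest on array-to-array spread, which may be partly technical. In 19 of them no member was called, and at most 0.0571% of all probes were. The exception was A/J at week 4, where 2 of 86 members were called and 1.81% of all 8620 probes were. Both rose with high-fat feeding. In that week 25 members had an unadjusted p under 0.05 (29.1% of members, and 20.9% of all probes).

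At week 4 in A/J Vps50, a subunit of the EARP complex that returns cargo from endosomes, ran from -0.15 through 0.27 to 0.81 on 10 high-fat arrays and from -0.39 through -0.26 to 0.06 on 10 low-fat arrays. Of the high-fat arrays 9 lay above every low-fat array. The difference was 0.50 ± 0.12 with a limma adjusted p of 0.0390. Stx5a, the syntaxin of transport between endoplasmic reticulum and Golgi, ran from 0.12 through 0.60 to 0.85 on 9 high-fat arrays and from -0.78 through -0.25 to 0.67 on 8 low-fat arrays. Its groups overlapped, since 1 low-fat array stood at 0.67 and 4 of the high-fat arrays lay above it, and the difference was 0.75 ± 0.19 with a limma adjusted p of 0.0475. In the other weeks the A/J diet difference of Vps50 lay between -0.22 and 0.12 and that of Stx5a between -0.32 and 0.32.

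**Figure D3:**
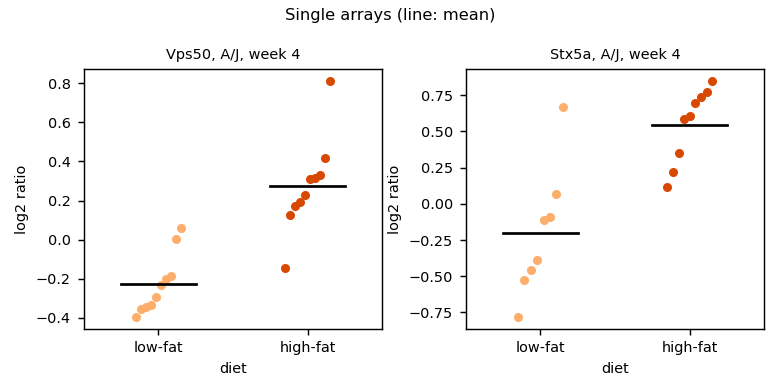
Log2 ratio of single arrays (y axis) for Vps50 (left) and Stx5a (right) in A/J at week 4, by diet (x axis); each point is an array and the line is the group mean. High-fat means are 0.28 and 0.55 and low-fat means -0.23 and -0.20, and for Stx5a the highest low-fat array lies among the high-fat arrays.

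By family the week 4 estimates were mixed. They were negative for 21 of 30 Rab probes and 10 of 16 Vps probes, and positive for 9 of 13 Sec and 6 of 7 Vamp probes, while 39 of all 86 members and 4224 of all 8620 probes were positive. Without centring, the median of all probes fell by 0.12 (log2) in this comparison. The adjusted p of Vps50 was then 0.132 and that of Stx5a 0.117. With consecutive arrays averaged they were 0.172 for both genes. In C57 at week 4 the diet difference of Vps50 was 0.18 and that of Stx5a -0.25.

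The strains differed in a few of the 84 tested trafficking probes, and those called in the fit over 9 weeks were higher in C57. On the low-fat diet 2 of 84 members (2.38%) were called and both were higher, a share like that of all probes, of which 2.39% were called (1.53% higher and 0.864% lower). With high-fat feeding 4 members were called, all higher, where 3.94% of all probes were called (2.75% higher and 1.19% lower). They were Vps35l, Rab27b, Rab22a and Snx21, the first 2 of them called on both diets. At an unadjusted p under 0.05 there were 13 members on the low-fat diet (11.7% of all probes) and 16 on the high-fat diet (15.2%). The reference pool came from C57 mice, and whether strain differences in the sequence under a probe move these ratios was not tested.

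Vps35l, a subunit of the retriever complex that recycles cargo from endosomes to the cell surface, differed most among the 84 tested member probes. On probe 6446 its weekly means on the low-fat diet ran from -1.21 through -0.05 to 0.91 in A/J and from -0.19 through 0.36 to 1.58 in C57. On the high-fat diet they ran from -0.97 through -0.12 to 1.06 in A/J and from -0.33 through 0.59 to 1.90 in C57. Across weeks the ranges of the strains overlapped, and within a week C57 was the higher in 9 of 9 weeks on either diet. The difference was 0.67 ± 0.11, or 1.59-fold, on the low-fat diet (limma adjusted p = 2.03e-04) and 0.79 ± 0.11, or 1.73-fold, on the high-fat diet (1.08e-05).

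The other Vps35l probes did not repeat it. Probe 3337, which had values on 395 arrays beside 393 for probe 6446, differed by 0.01 ± 0.08 on the low-fat diet (limma adjusted p = 0.968) and by 0.13 ± 0.08 on the high-fat diet (0.440). Probe 7937, measured on 231 arrays and not tested, had a mean weekly difference of -0.17 and -0.29. The strain difference was thus seen on 1 of the 3 probes of the gene.

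Rab27b, a GTPase of regulated secretion and of exosome release, was higher in C57 on both diets. Its weekly means on the low-fat diet ran from -1.08 through -0.18 to 0.45 in A/J and from -0.35 through 0.16 to 0.93 in C57, and on the high-fat diet from -1.07 through -0.28 to 0.31 and from -0.61 through 0.11 to 0.69. The ranges overlapped, and within a week C57 was higher in 8 of 9 weeks on the low-fat and 9 of 9 on the high-fat diet. The difference was 0.50 ± 0.10, or 1.42-fold, on the low-fat diet (limma adjusted p = 0.00299) and 0.41 ± 0.10, or 1.33-fold, on the high-fat diet (0.0135). Without week 4 the latter was 0.37 with an adjusted p of 0.0535.

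Rab22a, which directs early endosomes and recycling tubules, passed on the high-fat diet. There its weekly means ran from -0.10 through 0.53 to 0.79 in A/J and from 0.40 through 0.72 to 1.59 in C57, and C57 was the higher in 8 of 9 weeks, the exception being week 11. The difference was 0.41 ± 0.09, or 1.33-fold (limma adjusted p = 0.00697). On the low-fat diet it was 0.32 ± 0.09 with an adjusted p of 0.0707, so the threshold was missed there, though it was passed without centring, with quantile normalization, with a stricter filter, with single arrays as replicates, with the replicate block (0.32, adjusted p = 0.00229) and without week 10. It was also missed with group medians, a looser filter, a pseudocount, unlike arrays kept and without any other single week. Single arrays and the replicate block take arrays, not weeks, as the unit. The difference between the diets in this strain difference was 0.09 ± 0.13, not past the threshold (adjusted p = 1.00).

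Promoter sequence is shown for the genes called between strains or over the weeks that have 1 member probe, whose result has no second probe beside it. There are 6 such genes, and 4 of them, Rab22a, Rab13, Rab19 and Vamp1, are shown from the RefSeq promoters of build GRCm38.p6 used here. Rab27b and Rab37 are not shown, since genes without an entry and genes on a chromosome that was set aside were left out. For Rab22a, the called strain gene among those shown, the 250 bases before its start lie at chr2:173659595-173659844 on the plus strand. They read 5′ to 3′ as follows, with capitals for a CCAAT box (CCAAT or its reverse complement ATTGG) or a GC box (GGGCGG or CCGCCC).
Rab22a: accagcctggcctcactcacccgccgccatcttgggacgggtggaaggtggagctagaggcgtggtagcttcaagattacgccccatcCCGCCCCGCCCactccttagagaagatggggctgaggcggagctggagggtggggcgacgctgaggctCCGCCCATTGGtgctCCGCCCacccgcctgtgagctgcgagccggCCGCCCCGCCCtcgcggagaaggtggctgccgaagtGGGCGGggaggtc

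This Rab22a window holds 7 GC boxes, some sharing a base with a neighbour, and 1 CCAAT box. In all, 4 motifs were searched on both strands: CACGTG (the E-box), TGACGT (the core of the cAMP response element), CCAAT and GGGCGG. Of the 121 member genes 93 matched the promoter table, with 118 promoters of this length. The GC box was in 65.3% of the member promoters and in 32.7% of all 32851 promoters, and CCAAT was in 40.7% and 33.8%. TGACGT was in 11.9% and 6.47%, and CACGTG in 10.2% and 6.02%. The 32851 promoters were not limited to genes on the array or measured in liver, as the members were. Shares over measured genes were not taken, so these differences cannot be read as a trait of trafficking genes.

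Snx21, a sorting nexin of endosomes, was called on the high-fat diet on probe 8637, at 0.38 ± 0.11, or 1.30-fold (limma adjusted p = 0.0309, higher in 8 of 9 weeks). Its weekly means ran from -0.51 through 0.83 to 1.53 in A/J and from 0.47 through 1.27 to 1.67 in C57. The call depended on the setting: it was lost without week 3, 4, 5, 9, 10 or 11, with adjusted p from 0.0506 to 0.154, and passed in 4 of 8 other settings. The second Snx21 probe, 5853, had mean weekly differences of the other sign, -0.38 on the low-fat and -0.22 on the high-fat diet, and was not tested.

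**Figure D4:**
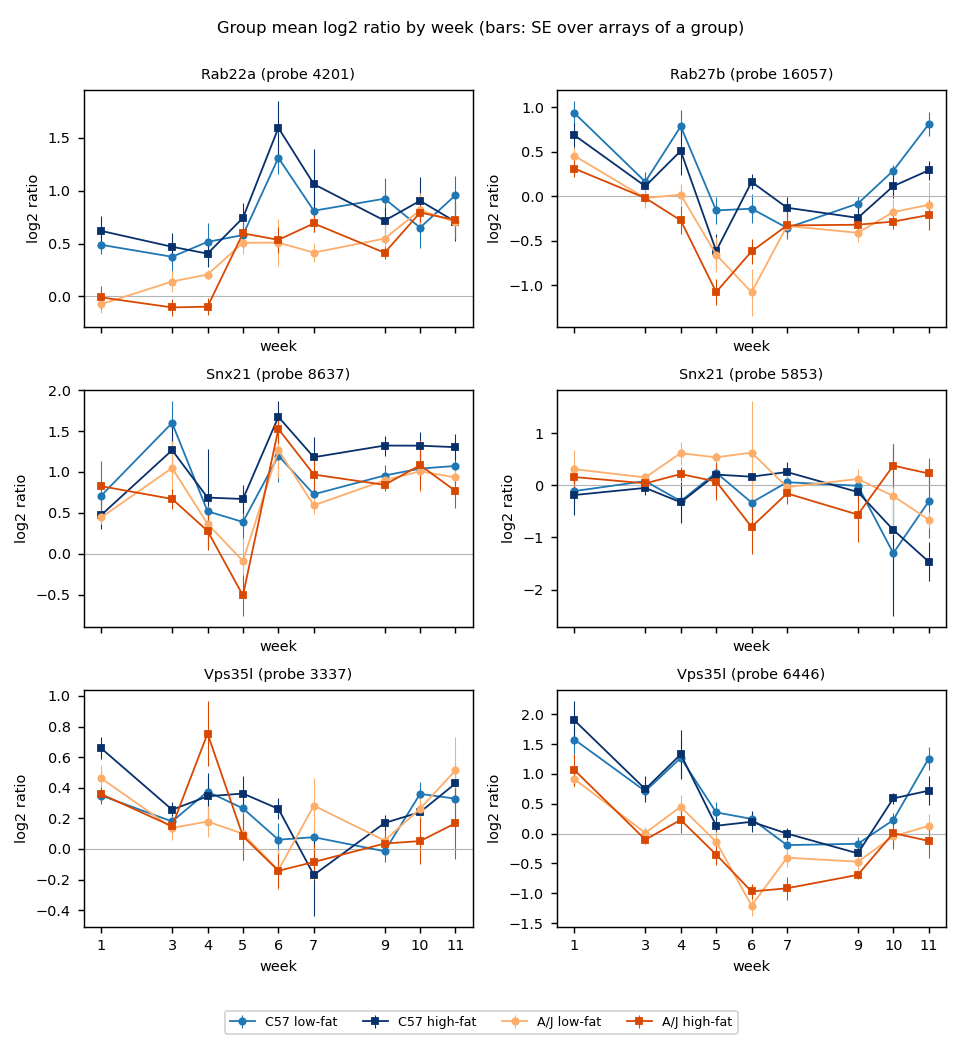
Group mean log2 ratio ± SE over the arrays of a group (y axis) by week (x axis) for the members called between strains, with second probes of Vps35l and Snx21; blue is C57, orange A/J, and dark squares are the high-fat diet. The blue lines of Vps35l probe 6446 lie above the orange ones of the same diet at every week, and those of probe 3337 cross them.

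Other strain estimates missed the threshold in the fit over 9 weeks. On the low-fat diet Sec61a1, the translocon pore, was at 0.37 ± 0.11 (limma adjusted p = 0.0981, C57 higher in 8 of 9 weeks). It was called there with single arrays as replicates (limma adjusted p = 0.0111). On the high-fat diet Vps45 was at 0.42 ± 0.19 (adjusted p = 0.288, and 0.27 without week 11). Vps28 of ESCRT-I (0.39 ± 0.12, adjusted p = 0.0630) and Snx16 (0.39 ± 0.11, adjusted p = 0.0502) were higher in C57 in 9 of 9 weeks there, and were singled out after their values were seen. Both passed with single arrays as replicates, with the replicate block (adjusted p = 6.91e-04 for Vps28 and 1.97e-04 for Snx16) and with a stricter filter. Quantile normalization and leaving out week 1 also called Vps28, and a pseudocount, unlike arrays kept and leaving out week 6 or 9 also called Snx16. Neither gene was called on that diet under a setting not named for it here. Vamp1 on the high-fat diet was called higher in C57 with quantile normalization, without week 10, with single arrays as replicates and with the replicate block. With arrays as the unit Arf2, Rab8a, Snx16, Stx7 and Vps29 were also called higher on the low-fat diet. On the high-fat diet so were Vps36 (probe 8136) and Rab8a, the latter also with unlike arrays kept.

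Lower values in C57 were called under some alternatives. Vps11 on the low-fat diet (-0.28 ± 0.09, limma adjusted p = 0.144) was called lower with quantile normalization (-0.35, adjusted p = 0.0187), with group medians and without week 1. Vps13a, a lipid transfer protein named here after its values were seen, had values on 175 arrays and was too sparse for the fit over 9 weeks. Its mean over weeks on the low-fat diet was -0.05 ± 0.49 (SD, 8 weeks) in A/J and -0.84 ± 0.55 (9 weeks) in C57, and on the high-fat diet -0.03 ± 0.41 and -0.78 ± 0.55 (8 weeks each). With the looser filter, in which some weekly means rest on 1 array, it was called lower in C57 on the high-fat diet (-0.75, limma adjusted p = 0.0255).

 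The other low estimates were Snx12 (-0.28 ± 0.12, and -0.16 without week 6) and Vps9d1 (-0.21 ± 0.08) on the low-fat diet, and Stx5a (-0.20 ± 0.10), Rab1a (-0.20 ± 0.16, and -0.13 without week 11) and Rab19 (-0.19 ± 0.08) on the high-fat diet. Rab19 was called lower there with single arrays as replicates (-0.19, limma adjusted p = 0.0162) and with the replicate block (-0.18, limma adjusted p = 0.0320). The 4 strain and diet groups had a median of 11289 to 11476 measured probes per array. Of the 15 hepatocyte markers Trf was lower in C57 with either diet (-0.52 low-fat, -0.41 high-fat). With high-fat feeding Alb was also lower (-0.39), and Ahsg (0.54) and Fgb (0.38) were higher. Over all 15 markers the median strain difference was -0.06 on the low-fat and 0.12 on the high-fat diet, and no marker of the other cell types was called. Their part in the strain results was not tested.

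Week 0, which the labels also give by diet, has few measurements of these genes. Vps35l on probe 6446 was measured on 15 of 39 arrays there, with group means of 2.24 (C57 low-fat, 6 arrays), 0.09 (C57 high-fat, 4), 0.37 (A/J low-fat, 4) and 0.99 on the single A/J high-fat array. Rab22a stood between -0.24 and 0.10 in the 4 groups, below every later group mean in C57 (0.37 to 1.59). Week 0 arrays measured a median of 4409 to 5956 probes by group, fewer than in later weeks, so their centring rests on fewer probes. Whether that moved the week 0 values was not tested. No member was called between the diets at week 0 in either strain, where 0% of 2270 probes (C57) and 0% of 2766 (A/J) were called and 27 and 30 members could be tested. At an unadjusted p under 0.05 limma had 1 member in C57 (3.92% of all probes) and 3 in A/J (12.8%).

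Over the 9 weeks a few trafficking genes drifted, most of them downward. Fitting the mean of the 4 strain and diet groups against week, 6 of 84 members were called, 1 rising and 5 falling. Of all 7643 probes 1.02% were called rising and 2.98% falling, and 22 members had an unadjusted p under 0.05 (24.1% of all probes). The 5 that fell were Vamp5, Vps36, Rab13, Vamp1 and Rab37, and Rab19 rose. Hybridisation batch cannot be told apart from week. The median log2 ratio of the 15 hepatocyte markers lay between 0.62 (week 3) and 1.20 (week 6), with none of the 15 called, and the median number of probes measured per array between 8171.5 (week 6) and 13366 (week 9). Their part in the drift was not tested.

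VAMPs sit on the vesicle and pair with syntaxins on the target membrane. Vamp5, first known from muscle, was on probe 13614 at 0.44, 0.26 and 0.37 at weeks 1, 3 and 4, and between -0.67 and -0.26 from week 5 on. In each of the 4 strain and diet groups its means at weeks 1, 3 and 4 were above 0 and those from week 5 on below it. The slope was -0.117 ± 0.021 per week (limma adjusted p = 0.0257), and by group it ran from -0.151 (C57 high-fat) to -0.097 (C57 low-fat). The second Vamp5 probe, 487, moved less, from 0.20 at week 1 to -0.13 at week 11. Vamp1, known from fast synaptic release, went from 0.44 at week 1 to -0.49 at week 11, at -0.089 ± 0.016 per week (adjusted p = 0.0257).

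Vps36 is the ESCRT-II subunit that binds ubiquitin. On probe 3729 it stood at 0.00, 0.11 and 0.22 at weeks 1, 3 and 4, and between -1.20 and -0.41 afterwards, with a slope of -0.114 ± 0.027 per week (limma adjusted p = 0.0438). Its second probe, 8136, was at 0.18 at week 1, -0.37 at week 5 and -0.11 at week 11. Rab13, a GTPase of tight junction traffic, went from -0.29 at week 1 to -1.16 at week 11 (-0.095 ± 0.019 per week, adjusted p = 0.0276). Rab37, of secretory granules, went from -0.06 to -0.80 (-0.089 ± 0.022, adjusted p = 0.0464).

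Rab19, a Rab GTPase, was the member called rising, from -0.50 at week 1 to 0.28 at week 11, at 0.077 ± 0.017 per week (limma adjusted p = 0.0379). All 4 strain and diet groups had a positive slope, from 0.060 in C57 low-fat to 0.091 in A/J low-fat. Rab29, of the Golgi and lysosome, missed the threshold at 0.085 ± 0.023 (adjusted p = 0.0552). Nearer to it were the lowest limma adjusted p among syntaxins (0.0505) and among sorting nexins (0.0527). Quantile normalization also called Stx17, Snx1 and Sec63 (probe 5944) falling and Rab29, Arf6 and Rab6a rising. Vps35 had an estimate of 0.079 ± 0.038 (0.225) and Snx16 one of -0.099 ± 0.031 (0.0936). The calls depended on the weeks in the fit: without week 3, 4, 10 or 11 no member was called, without week 1 there was 1, without week 7 there were 3 and without week 5 there were 13. The calls over all 7643 probes moved with them, from 306 to 0 without week 3 or 10, 18 without week 4, 5 without week 11, 56 without week 1, 96 without week 7 and 677 without week 5. With a looser filter on probes none of 134 members was called, and 53 of all 13077 probes were.

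**Figure D5:**
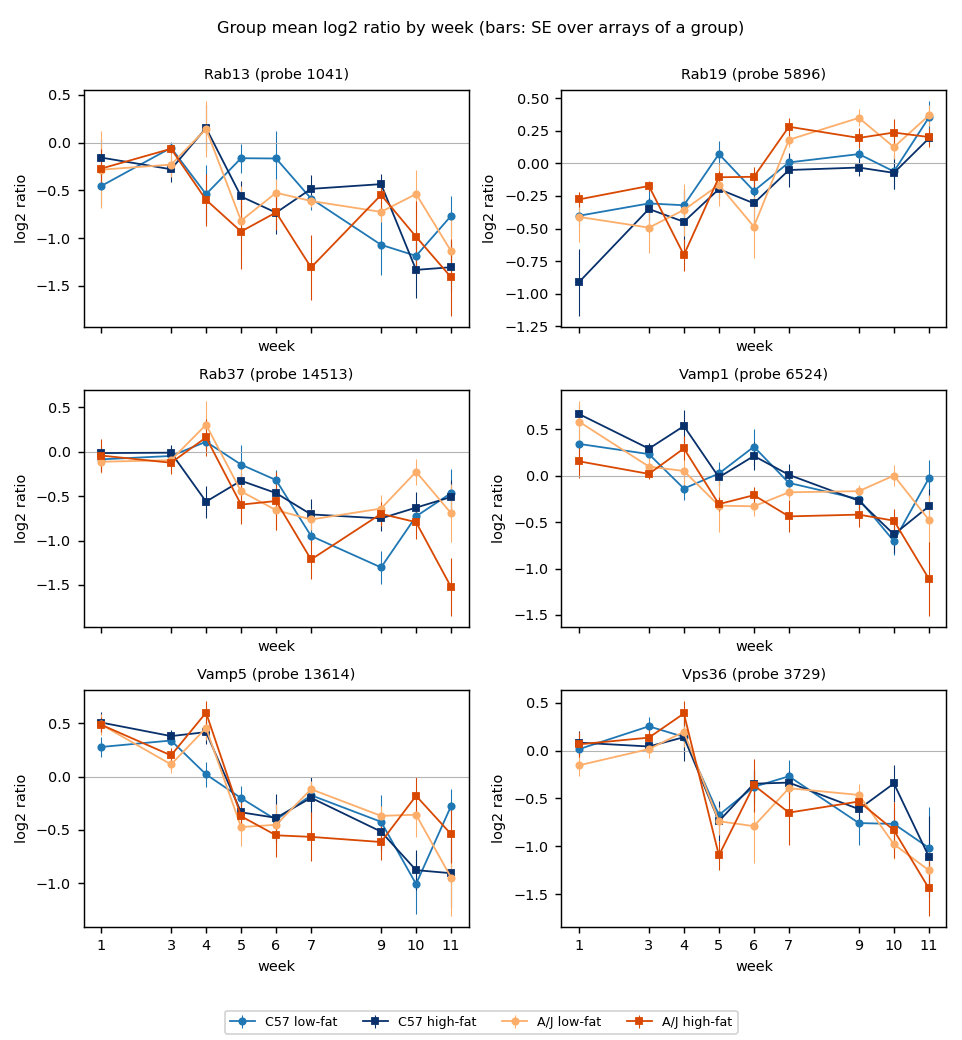
Group mean log2 ratio ± SE over the arrays of a group (y axis) by week (x axis) for the 6 members called with a slope; blue is C57, orange A/J, and dark squares are the high-fat diet. Vamp5 and Vps36 lie near or above 0 through week 4 and mostly below it from week 5, and Rab19 goes from below 0 at week 1 to above it at week 11.

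The same 250-base windows of the genes called with week lie at chr6:125215331-125215580 (Vamp1, fell), chr3:90213465-90213714 (Rab13, fell) and chr6:39381103-39381352 (Rab19, rose), all on the plus strand of GRCm38.p6, with the first of 2 entries used for Rab13. They are shown 5′ to 3′ with CCAAT and GC boxes in capitals, so that a gene that rose can be read beside those that fell.
Vamp1: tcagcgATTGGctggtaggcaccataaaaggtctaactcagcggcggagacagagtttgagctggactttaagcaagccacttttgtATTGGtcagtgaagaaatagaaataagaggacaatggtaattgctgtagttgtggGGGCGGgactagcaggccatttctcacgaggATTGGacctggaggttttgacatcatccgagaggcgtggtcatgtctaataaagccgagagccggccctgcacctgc
Rab13: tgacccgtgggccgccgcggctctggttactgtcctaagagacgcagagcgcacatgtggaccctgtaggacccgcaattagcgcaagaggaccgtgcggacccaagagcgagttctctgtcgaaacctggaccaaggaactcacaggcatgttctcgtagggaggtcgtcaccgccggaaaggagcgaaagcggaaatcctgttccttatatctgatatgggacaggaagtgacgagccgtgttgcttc
Rab19: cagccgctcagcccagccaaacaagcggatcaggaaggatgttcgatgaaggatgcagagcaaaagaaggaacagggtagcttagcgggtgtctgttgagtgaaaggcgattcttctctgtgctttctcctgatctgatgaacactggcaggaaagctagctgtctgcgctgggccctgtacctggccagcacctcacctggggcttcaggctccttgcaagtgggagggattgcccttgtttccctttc

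The Vamp1 window holds 3 CCAAT boxes and 1 GC box. In the Rab13 and Rab19 windows none of the 4 motifs searched is present.

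Other genes of the pathway, outside the naming rule, were counted from 9 lists: coats, cargo receptors, the signal recognition particle and signal peptidase, other SNAREs, Rab and Arf regulators, clathrin and its adaptors, ESCRT and the Golgi tethers. Of their 160 genes on the array 84 were tested. In limma none passed in the comparisons of diet or strain, where from 0 (diet in A/J, 5.42% of all probes) to 10 (strain on the high-fat diet, 15.2% of all probes) had an unadjusted p under 0.05. Over the weeks 1 of 84 fell, where 2.98% of all probes did: Arfip2, which binds Arf and Rac GTPases (-0.096 ± 0.022 per week, limma adjusted p = 0.0379). Their ratios ran from Copb1 of the COPI coat (-1.14) to the ESCRT-III gene Chmp5 (0.80), with Copb2, also COPI, at 0.74. The COPII partner list had a median ratio of 0.11 and its highest gene was the retrieval receptor Kdelr1 (0.72).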

How the data were processed

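Per the labels, liver RNA in Cy5 and the pooled reference in Cy3 were hybridised together on spotted arrays. The authors deposited 1 ratio per probe and array, on a linear scale with a mean of 1 per array. How spots were read, filtered and normalized is not given in the sources used here. Ratios of 0 or less counted as missing. A log2 was taken with no pseudocount, and each array was centred on its median over the tested probes. Group means per week were fitted in limma 3.58.1 (R 4.3.3) with 4 strain and diet levels and a week term, or a straight line over 9 weeks. Single weeks were fitted on single arrays. P-values were adjusted by the Benjamini-Hochberg method across every probe in a fit, and called under 0.05. Signal strength is unknown, so the number of arrays limits the precision.

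Named genes are the 3 highest and 3 lowest estimates among members in each comparison, every called member, the highest and lowest ratio of each family, genes with several member probes, and the ends of each list. The members and lists were chosen with earlier results of these data known. Entrez identifiers of all 134 members matched the table used to update symbols. The code was tested on simulated data. Alternatives were no centring, quantile normalization, other filters, a pseudocount of 0.1, group medians, unlike arrays kept, consecutive arrays averaged, single arrays as replicates, a replicate block and leaving out each week.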

Additional observations from a re-analysis of the deposited data

Results flagged for a closer look

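In 26 sets of 9 weekly differences of named members, 3 had a week whose gap to the nearest other week was over 0.493 of the whole range, Dixon's critical value for 9 values. The limit is a 95% value for a single set, and these sets belong to members named for their extreme estimates. Rab24, a GTPase linked to autophagy, had diet differences at week 4 of -0.918 in C57 (nearest other week -0.414) and of -1.73 in A/J (nearest -0.367). Neither passed the threshold: in C57 no probe was called at that week, and in A/J the limma adjusted p was 0.0751 over 10 high-fat and 7 low-fat arrays. Without week 4 its mean difference was -0.13 in C57 and -0.10 in A/J. Rab1a, of transport between endoplasmic reticulum and Golgi, had a diet difference of 1.93 in A/J at week 11 (nearest 0.56), and its mean difference was 0.0078 without that week.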

How the results depend on the processing

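No estimate of a named member changed sign. These members were picked as called or furthest from 0, which makes a change of sign unlikely, and the signs of other members were not compared. Of the values of named members under alternatives 624 stayed on their side of the threshold, 69 lost it and 11 gained it. These counts include named members not called in the main fit, which had no call to lose. The 6 called slopes kept their call in 1 (Rab37) to 5 (Rab13) of 9 fits without a week. Vps35l kept its strain call in 9 of 9 such fits on either diet. Members called and, in brackets, all probes called are given where they moved by over 1.5 times. With quantile normalization there were 4 (282) for strain on the low-fat diet, 11 (588) for the slope, 1 (235) for A/J at week 4, and 4 probes in all for diet in A/J. Without centring, 172 probes had a slope and 1 member, Rab5if, passed in A/J at single weeks. With the looser filter 0 members (53 probes) had a slope, 0 members passed in A/J at single weeks, and 0 probes for diet in A/J. With group medians 1 probe passed for diet in A/J, and with consecutive arrays averaged 0 members and 1 probe at week 4. With single arrays as replicates there were 2 (139) for diet in C57, namely Sec14l2 and Rab3d, 33 probes for diet in A/J, 3 for the difference of the diet differences, 9 (554) for strain on the low-fat diet and 10 (852) on the high-fat diet. Leaving out each week gave 6 to 19 probes for diet in C57, 0 to 2 in A/J, 2 to 5 members for strain on the high-fat diet (2 without week 4), and 0 to 13 members (0 to 677 probes) for the slope.

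Deviations of arrays with the same number and week in different groups correlated at a mean of 0.0101 over 481 pairs. With different numbers the mean was -0.00059 over 4620 pairs. The check matched the number in the label only. Numbers run on across weeks and are shifted in some groups, since some weeks hold fewer arrays. The same number can thus fall in different weeks, and a block on it would join them. Pairing by position within a week was not tested. With the replicate block there were 1 member (90 probes) for diet in C57, 10 probes for diet in A/J, 1 probe for the difference of the diet differences, 4 (386) for strain on the low-fat diet, 10 (722) on the high-fat diet, and 0 members (3 probes) for A/J at week 4. The causes of these moves were not tested.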
